A study of Mus musculus with 8 samples.

Results

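The genes described here are 37 endothelial and endocardial genes, out of 24291 genes tested, in the outflow tract of mouse embryos that had lost Raldh2. They were chosen by name, as genes known to be used by the cells that line vessels and the heart, and every probe annotated to one of them was read. All 37 had at least 1 probe, 45 probes in all, and all 37 passed the filter on dim probes. RNA came from 8 pools of 4 outflow tracts each, microdissected at stage E10.5, with each pool on its own one-colour array. The knockout group was 4 pools (1, 2, 3 and 7) of Raldh2-/- embryos, and the wild type group was 4 pools (1, 2, 5 and 7) of their wild type littermates. In both groups between E7.5 and E8.5 the dams had eaten all-trans-retinoic acid at 0.1 mg per g of food, so each group is called rescued and no untreated embryo is among the 8 pools. Raldh2, now named Aldh1a2, makes retinoic acid from retinaldehyde. The genotype is a loss in all cells of the embryo, the rescue came from the mother, and a pool mixes embryos. The labels give no strain and do not say whether pools with 1 number share a litter, so p-values measure the spread between these pools.

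Endothelial cells line every vessel, and the endocardium is their counterpart inside the heart, including the outflow tract. They are joined by VE-cadherin and claudin junctions, are kept quiet or remodelled by angiopoietins acting on the Tie receptors, and take their identity from ETS, SOXF and GATA transcription factors. In the outflow tract the endocardium also gives rise to cushion mesenchyme, the tissue from which the semilunar valves and part of the septum form. In whole tissue, fewer endothelial cells and less RNA per endothelial cell cannot be told apart. The junction marker Pecam1, the adhesion molecule Cdh5 and the receptor Tek were above background on all 8 arrays, as was every member except Lyve1, which was above it on all 4 knockout arrays and 3 of 4 wild type arrays.

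The array reports each gene through a 60-base probe, and the probes of close relatives can be set side by side. Tie1 and Tek are paralogous tyrosine kinase receptors, and their probes were aligned with each other without gaps. With the pair aligned at an offset of 3 bases, 39 of 57 bases were identical (68.4%), and those shared bases are in capitals. The probes of Emcn (endomucin, a sialoprotein of the luminal surface), Pecam1 and Nos3 (endothelial nitric oxide synthase, the probe spotted 10 times) are shown as further examples. The Nos3 probe shown is not the one that stands for the gene in the fits. Coordinates are those of the array files on mm9, and sequences are those of the array.
Tie1 probe, chr4:118144132-118144191 (minus strand): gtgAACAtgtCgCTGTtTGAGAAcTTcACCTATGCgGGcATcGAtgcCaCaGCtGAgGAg
Tek probe, chr4:94540624-94540683 (plus strand): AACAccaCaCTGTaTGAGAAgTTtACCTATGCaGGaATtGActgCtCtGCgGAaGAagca
Emcn probe, chr3:137086389-137086448 (plus strand): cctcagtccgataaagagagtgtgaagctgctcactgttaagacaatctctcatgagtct
Pecam1 probe, chr11:106540864-106540923 (minus strand): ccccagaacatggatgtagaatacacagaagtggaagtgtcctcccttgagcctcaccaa
Nos3 probe, chr5:23889636-23889695 (plus strand): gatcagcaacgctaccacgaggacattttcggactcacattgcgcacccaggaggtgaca
Within the aligned stretch, lower-case letters of the Tie1 and Tek lines mark where the probes differ; the first 3 letters of Tie1 and the last 3 of Tek lie outside it. The values of both genes are given with the receptors.

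The promoter sequences of members were read as a shared feature that the choice by name did not use. RefSeq promoters (GRCm38.p6) were held for 15 of the 37 genes, with 19 start sites, and the 250 bases before each start were searched on both strands. CAGGAA, a form of the core bound by ETS factors such as Erg and Fli1, was in the window of 12 of the 15 genes: Apln, Cd34, Clec14a, Egfl7, Emcn, Erg, Gja4, Rasip1, Robo4, Stab1, Tek and Tie1. Of all 27025 genes with a window, 28.3% held it. Counted by start site it was in 13 of 19 member windows and in 25.7% of all 32851. ACAAT, a core of SOX sites, was in 7 of the 15 genes and in 30.9% of all genes. CCGGAA, another ETS core, was in 0 of the 15 and in 13.6% of all genes. The hypoxia response cores ACGTG and GCGTG were in 1 and 2 of the 15, against 18.5% and 30.9% of all genes. AGGTCA, a part of a retinoic acid receptor site and not a whole one, was in 4 of the 15 (15.8% of all genes). GGTTCA, another such part, was in 0 (10.1% of all genes). Median GC content was 58.0% in member windows and 52.4% in all windows. A match is a run of letters and not a site, and no match says only that these letters are not in this window. The windows below are those of Apln and Tie1, 2 of the 3 genes whose pools did not overlap, of Tek, the relative of Tie1, of Gja4, and of Cd34, which like Tek holds the motif at 2 places; they are written on the strand of the gene, with CAGGAA or its reverse complement TTCCTG in capitals.
Apln promoter, chrX:48034854-48035103 (minus strand): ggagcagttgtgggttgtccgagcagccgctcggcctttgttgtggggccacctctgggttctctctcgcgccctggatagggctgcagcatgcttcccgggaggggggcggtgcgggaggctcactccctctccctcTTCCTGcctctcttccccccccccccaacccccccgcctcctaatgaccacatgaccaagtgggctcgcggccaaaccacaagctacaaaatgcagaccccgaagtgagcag
Tie1 promoter, chr4:118489850-118490099 (minus strand): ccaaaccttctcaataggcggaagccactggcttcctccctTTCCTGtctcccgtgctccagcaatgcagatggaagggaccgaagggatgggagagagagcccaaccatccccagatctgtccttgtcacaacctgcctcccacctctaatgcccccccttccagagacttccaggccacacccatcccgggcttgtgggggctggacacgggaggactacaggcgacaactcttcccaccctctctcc
Tek promoter, chr4:94739039-94739288 (plus strand): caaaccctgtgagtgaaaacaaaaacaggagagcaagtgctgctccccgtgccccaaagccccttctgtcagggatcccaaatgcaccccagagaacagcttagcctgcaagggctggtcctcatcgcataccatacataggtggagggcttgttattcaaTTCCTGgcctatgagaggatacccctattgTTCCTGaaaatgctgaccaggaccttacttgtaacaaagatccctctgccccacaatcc
Gja4 promoter, chr4:127314040-127314289 (minus strand): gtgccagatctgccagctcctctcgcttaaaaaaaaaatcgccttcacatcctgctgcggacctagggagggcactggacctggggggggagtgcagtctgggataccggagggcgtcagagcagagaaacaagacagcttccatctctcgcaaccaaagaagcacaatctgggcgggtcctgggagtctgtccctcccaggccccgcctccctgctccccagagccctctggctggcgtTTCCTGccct
Cd34 promoter, chr1:194938571-194938820 (plus strand): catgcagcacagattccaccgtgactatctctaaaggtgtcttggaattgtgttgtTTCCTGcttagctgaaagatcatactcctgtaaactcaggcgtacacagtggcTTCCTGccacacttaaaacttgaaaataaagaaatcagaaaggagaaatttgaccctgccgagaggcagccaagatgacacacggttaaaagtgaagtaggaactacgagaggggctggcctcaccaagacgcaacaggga
The motif lies far from the start in Tie1 and close to it in Gja4, so its place differs among these windows. None of these 5 windows was tested for binding here.

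Levels are log2 signals after subtraction of the 75th percentile of each array, and pool values are listed in the order knockout 1, 2, 3, 7 and wild type 1, 2, 5, 7. A single array, that of wild type pool 1, differed from the rest: 94.7% of its spots exceeded background, against 53.3% to 63.2% elsewhere, and its median processed signal was 2023, with 40.0 to 83.0 elsewhere. Its median correlation with the other arrays was 0.68, against 0.97 to 0.99 for the rest. Its spike-in detection limit was 3.68 (log10 concentration), against 0.99 to 2.20 elsewhere. Differences are therefore given over all 8 arrays and over the 7 without it, and pool values show that pool separately. The knockout arrays filled 1 row of the slide and the wild type arrays the other row; effects of row and of genotype cannot be told apart. For comparison, the targeted gene, Aldh1a2, was 3.46-fold lower in the knockout pools over 7 arrays (limma adjusted p = 0.364) and 2.74-fold lower over 8 (limma adjusted p = 0.735). Its level was 2.02, 2.01, 1.87 and 0.06 across the knockout pools and 1.92, 3.21, 2.98 and 3.65 across the wild type pools. Knockout pool 7 was thus far below the other knockout pools, and over 8 arrays the groups overlapped. The Aldh1a2 probe was above background in all 4 knockout pools.

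The main comparison asked whether the endothelial and endocardial genes were at other levels in rescued knockout than in rescued wild type outflow tracts. None of the 37 passed the test in either fit. Over 8 arrays 0% of 24291 genes passed (limma with Benjamini-Hochberg adjustment over all genes, threshold 0.05), and over 7 arrays 0% of 23668. The smallest adjusted p among members was 0.735 over 8 arrays and 0.346 (Apln) over 7. At an unadjusted p under 0.05 over 8 arrays, 1 member was higher in the knockout pools (Gja4; 0.659% of all genes were) and 1 was lower (Apln; 1.12% of all genes were). Over 7 arrays 2 were higher (Tie1 and Lmo2; 6.21% of all genes) and 2 were lower (Apln and Lyve1; 4.33% of all genes). In both fits the groups did not overlap for 3 members. Tie1 was higher in every knockout pool, as were 3.95% of all genes over 8 arrays and 6.53% over 7. Apln and Lyve1 were lower in every knockout pool, as were 1.54% of all genes over 8 arrays and 4.89% over 7. As shares of the members these are 2.7% and 5.41%, which do not stand out from the 7-array shares of all genes. Over 8 arrays the share lower in every knockout pool, 5.41%, was above the 1.54% of all genes, and rests on 2 members.

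The differences of the 37 genes were centred near those of all genes once wild type pool 1 was left out. Over 7 arrays the median log2 difference, knockout minus wild type, was 0.07 for the members and 0.05 for all genes, with 21 members above 0 (56.8%, against 59.3% of all genes) and 16 below. Array median scaling left 13 members above 0 and put the median of all genes at -0.153. Over 8 arrays the median difference was 0.48 for the members and 0.13 for all genes, with 31 members above 0 (83.8%, against 57.1% of all genes) and 6 below. The fits differ by the array of wild type pool 1, on which 28 of the 37 members (75.7%) had their lowest value of the 8 pools, against 51.4% of all genes. On that array the members lay a median of 1.88 log2 units below the other wild type pools, and all genes a median of 0.52 below. Of all 24291 genes, 9542 had their highest value there, and 0 members did. Other lists were also low there: relative to the 7-array mean, cardiomyocyte genes averaged -1.83, cushion mesenchyme -1.87 and erythroid -2.09, and the members -1.55. The other endothelial genes averaged -0.64. Leukocyte, neural crest, neuronal, epithelial and platelet genes averaged above 0. Whether these list means follow the cells of wild type pool 1 or the signal of its array was not tested.

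**Figure D1:**
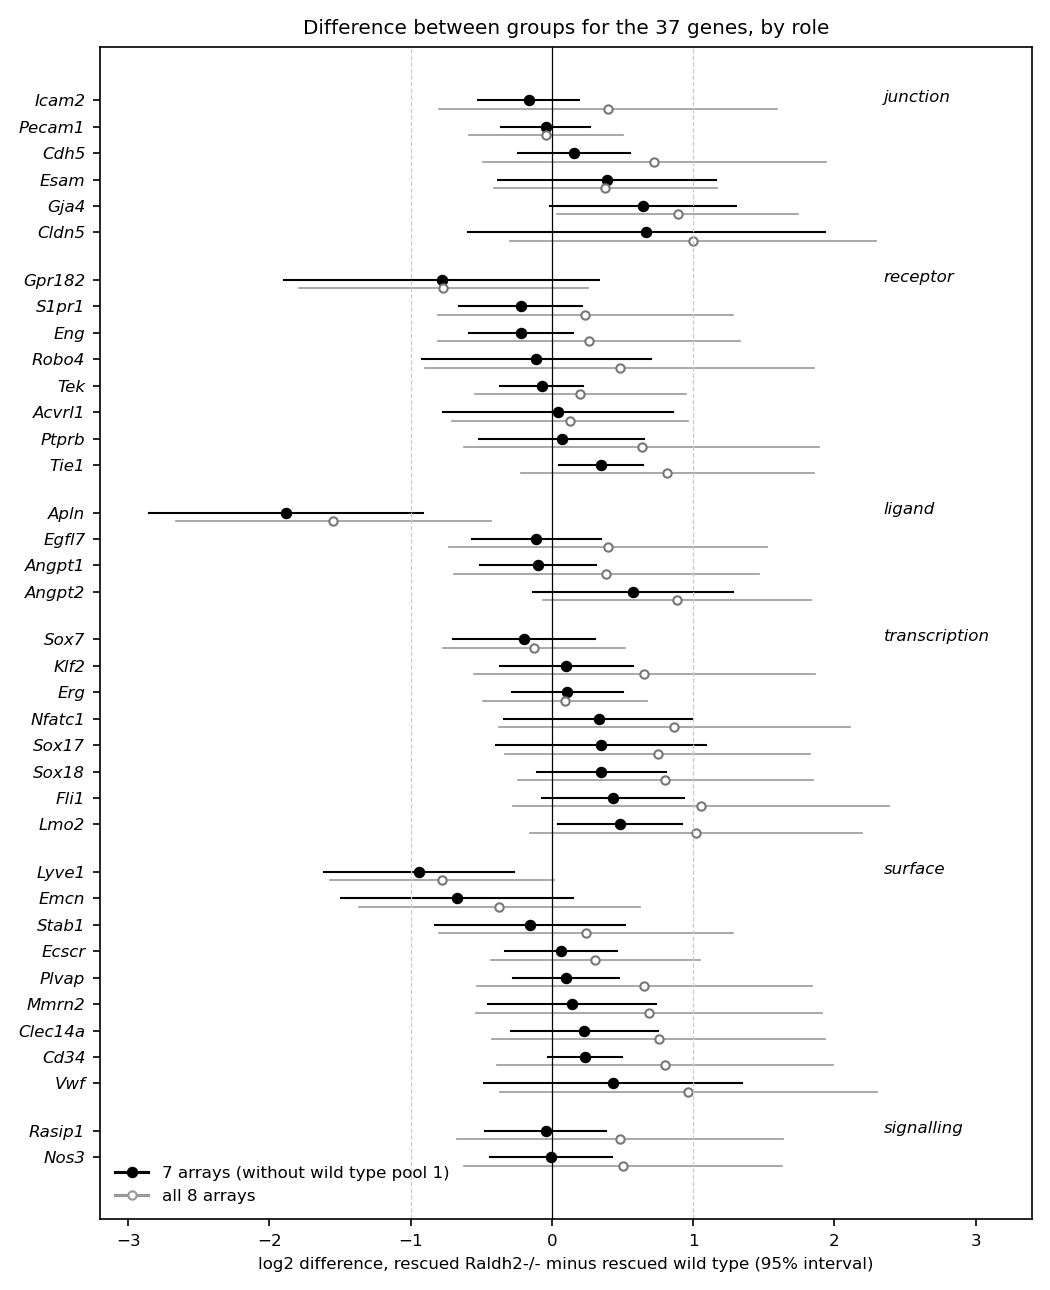
Log2 difference, rescued Raldh2-/- minus rescued wild type, of each of the 37 genes grouped by role, with its 95% interval; filled points are the fit over 7 arrays and open points the fit over 8. Filled points run from -1.88 (Apln) to 0.67 (Cldn5), and the open points lie further right for most genes.

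The 7 arrays bounded most of these differences. The 95% interval lay within 1 log2 unit of 0 for 26 of the 37 genes, 70.3%, against 82% of all genes. The exceptions were Apln, Lyve1, Gpr182, Emcn, Cldn5, Gja4, Angpt2, Esam, Vwf, Sox17 and Nfatc1. The median residual SD of the members was 0.31 log2 units and that of all genes 0.21. Over 8 arrays 5 members had such an interval, Pecam1, Tek, Sox7, Erg and Acvrl1, 13.5% against 20.2% of all genes.

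Among the 4 secreted factors, Apln was the one that was lower in every knockout pool. Apln encodes apelin, a peptide made by sprouting endothelium and known to be induced by low oxygen. Its level was -2.51, -3.21, -2.14 and -1.94 across the knockout pools, and -1.91, -0.19, -1.41 and -0.09 across the wild type pools. Every knockout pool was below every wild type pool, although knockout pool 7 and wild type pool 1 differed by less than the spread within either group. Over 7 arrays the group means were -2.45 ± 0.56 (SD, n = 4) and -0.56 ± 0.73 (SD, n = 3). The difference was -1.88 (SE 0.41), 3.69-fold lower, with a 95% interval of -2.85 to -0.92 and a limma adjusted p of 0.346. Over 8 arrays it was -1.55 (SE 0.49; limma adjusted p = 0.735). Over 7 arrays every knockout pool also stayed below every wild type pool with quantile, array median, normexp and matrix values, at -1.75, -2.09, -1.52 and -1.88, and limma adjusted p ran from 0.0709 (array median) to 0.346. Over 8 arrays the difference was smaller under 3 of these, at -0.41 with quantile normalization (limma adjusted p = 0.865), -1.01 with array medians (limma adjusted p = 0.781) and -1.19 with normexp (limma adjusted p = 0.628).

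Most genes of a hypoxia and glycolysis list were, like Apln, lower in the knockout pools over 7 arrays. The list was chosen because it had moved in an earlier analysis of these data, so its counts are not an independent result. Of its 20 genes, 18 were lower in every knockout pool than in every wild type pool over 7 arrays (4.89% of all genes were). Its median difference was -0.94 over 7 arrays and -0.62 over 8, with 4 above 0 over 8. None of the 20 passed the test over all genes, with a smallest limma adjusted p of 0.218. Car9, Stc2, Egln3 and Ndrg1, the 4 with the smallest unadjusted p over 8 arrays, differed by -2.77, -2.14, -2.16 and -2.58 over 7. The mean of the list, relative to the 7-array mean, was -0.41, -0.43, -0.29 and -0.74 across the knockout pools and 0.79, 0.12 and 0.96 across the wild type pools other than pool 1. In wild type pool 1 it was -0.62, within the knockout range. Wild type pool 5 was the lowest of these other 3 wild type pools both for Apln and for the list. Among the knockout pools, pool 7 was the lowest for the list and the highest for Apln. The part of the genes of this list in the Apln difference was not tested. The apelin receptor gene Aplnr, chosen after its values were seen, overlapped between groups, at 0.24 (SE 0.57) over 7 arrays and -0.51 (SE 0.81) over 8.

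The angiopoietins act on Tek, with Angpt1 as its agonist and Angpt2 as a context-dependent antagonist. Angpt2 was 0.04, 0.15, -0.23 and 0.98 across the knockout pools, and -1.58, -0.04, -0.26 and -0.71 across the wild type pools. Knockout pool 7 was the highest, knockout pools 1 and 2 lay above wild type pool 2 by less, and knockout pool 3 lay within the wild type range. The difference over 7 arrays was 0.57 (SE 0.30), with a 95% interval of -0.13 to 1.28 and a limma adjusted p of 0.532, and over 8 arrays 0.89 (SE 0.42). Angpt1 ran from 1.48 to 1.61 across the knockout pools and from 1.21 to 1.96 across the wild type pools other than pool 1, a difference of -0.10 (SE 0.17), or 0.39 (SE 0.48) over 8 arrays. Egfl7, a matrix-bound factor of growing vessels, differed by -0.11 (SE 0.20) over 7 arrays, with pools from 5.27 to 5.92, and by 0.40 (SE 0.50) over 8.

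Of the 8 receptors and their partners, Tie1 was the one whose groups did not overlap. Tie1, which modulates signalling through Tek, was 1.69, 2.14, 2.01 and 1.99 across the knockout pools. It was -0.27, 1.66, 1.61 and 1.57 across the wild type pools. Knockout pool 1 lay only just above wild type pool 2. The means over 7 arrays were 1.96 ± 0.19 (SD, n = 4) and 1.61 ± 0.05 (SD, n = 3), which differ by 0.35 (SE 0.13), or 1.27-fold, with a 95% interval of 0.05 to 0.64. Its limma adjusted p was 0.431 over 7 arrays, and over 8 arrays the difference was 0.82 (SE 0.45; limma adjusted p = 0.735). The groups overlapped over 7 arrays under quantile (0.31) and array median scaling (0.14).

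Tek, the angiopoietin receptor, was 1.41, 1.62, 1.46 and 1.21 across the knockout pools and 0.39, 1.37, 1.49 and 1.62 across the wild type pools. The groups overlapped fully once wild type pool 1 was set aside. The difference over 7 arrays was -0.07 (SE 0.13), with a 95% interval of -0.37 to 0.22 (limma adjusted p = 0.844), and over 8 arrays 0.20 (SE 0.33). Ptprb, the endothelial phosphatase that acts on Tek, differed by 0.07 (SE 0.25) over 7 arrays and 0.64 (SE 0.56) over 8.

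The remaining receptors had intervals that include 0 in both fits, and the values here are over 7 arrays. Gpr182, a receptor that takes up chemokines, ran from 0.90 to 2.32 across the knockout pools and from 1.58 to 3.39 across the wild type pools other than pool 1, and it differed by -0.78 (SE 0.47). Eng and Acvrl1, the co-receptor and receptor for BMP9 and BMP10, differed by -0.22 (SE 0.16) and 0.04 (SE 0.35). S1pr1, which senses sphingosine-1-phosphate, differed by -0.22 (SE 0.19), and Robo4, a guidance receptor of vessels, by -0.11 (SE 0.34). Over 8 arrays Gpr182 was at -0.77 (SE 0.45), and Eng, Acvrl1, S1pr1 and Robo4 were at 0.26, 0.13, 0.24 and 0.48. The 8 receptors had a median difference of -0.09 over 7 arrays, with 3 above 0, and 0.25 over 8, with 7 above 0.

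**Figure D2:**
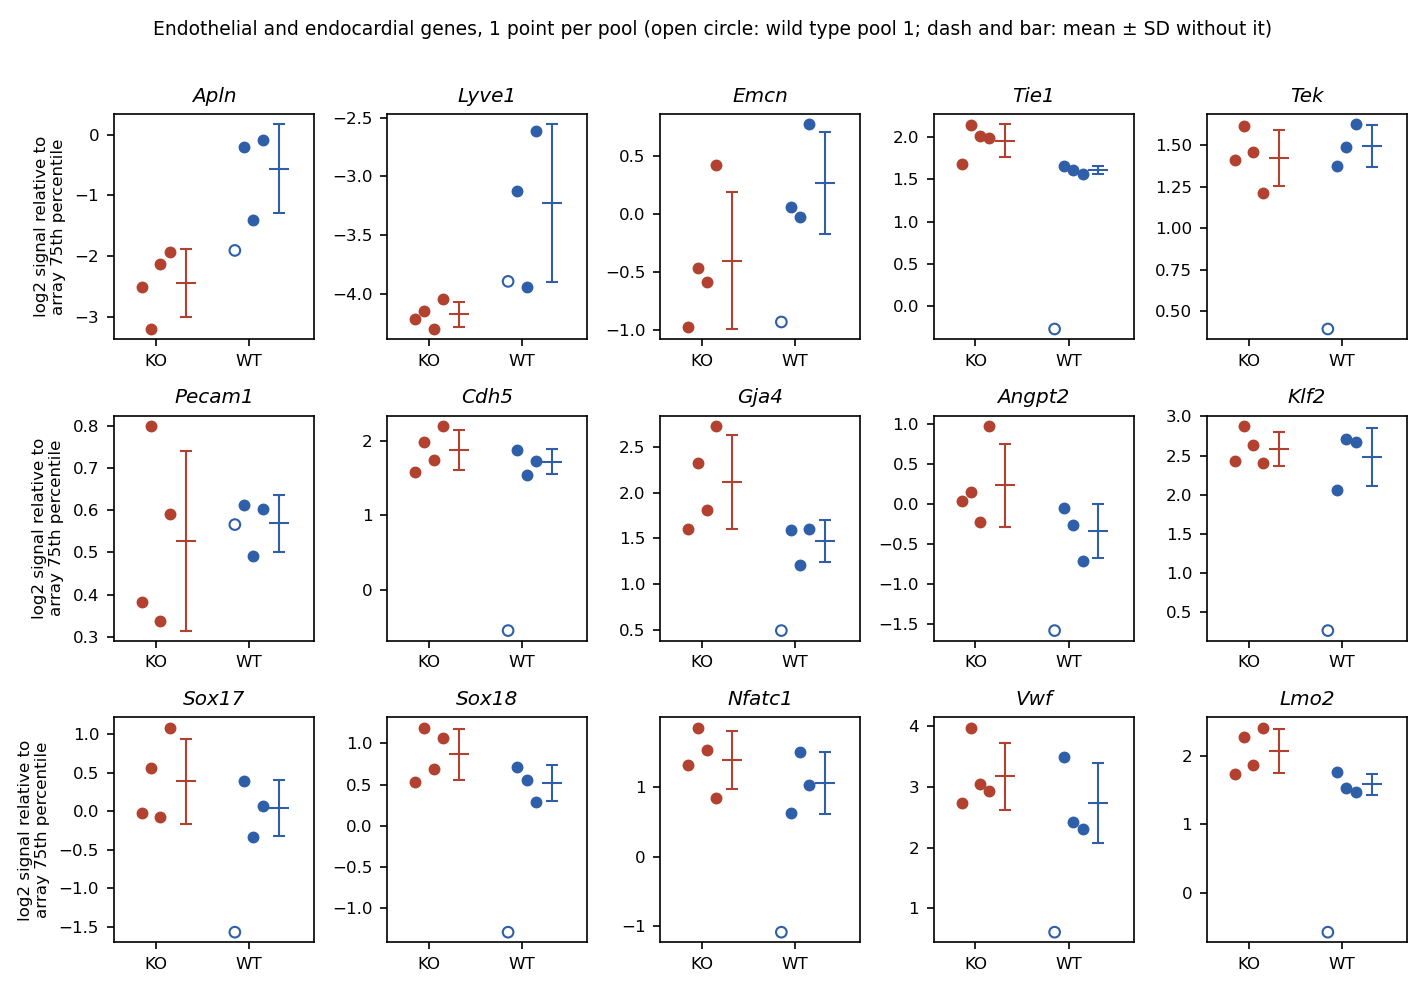
Log2 signal of 15 genes, scaled to each array's 75th percentile, 1 point per pool (red, knockout; blue, wild type; open circle, wild type pool 1), with the mean ± SD over 7 arrays; axes differ between panels. The knockout points of Apln and Lyve1 all lie below the wild type points, those of Tie1 all above, and the points of the other panels overlap.

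The 6 junction and adhesion genes had a median difference of 0.28 over 7 arrays, with 4 above 0, and 0.56 over 8, with 5 above 0; none passed the test. Pecam1, an adhesion molecule of endothelial contacts, was 0.38, 0.80, 0.34 and 0.59 across the knockout pools and 0.57, 0.61, 0.49 and 0.60 across the wild type pools. It was the gene with the same difference, -0.04, in both fits (SE 0.13 over 7 arrays), with a 95% interval of -0.36 to 0.27. Its wild type pool 1 value lay among the other wild type pools. Cdh5, or VE-cadherin, was 1.58, 1.99, 1.75 and 2.20 across the knockout pools and -0.55, 1.88, 1.55 and 1.73 across the wild type pools. Its difference was 0.16 (SE 0.17; limma adjusted p = 0.751) over 7 arrays and 0.73 (SE 0.53) over 8.

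Gja4, the gap junction protein connexin 37 of arteries and endocardium, was 1.60, 2.33, 1.81 and 2.73 across the knockout pools and 0.49, 1.60, 1.21 and 1.61 across the wild type pools. Knockout pools 2, 3 and 7 lay above all wild type pools, and knockout pool 1 lay level with wild type pools 2 and 7. The difference was 0.65 (SE 0.28), 1.56-fold, with a 95% interval of -0.01 to 1.30 (limma adjusted p = 0.475) over 7 arrays, and 0.89 (SE 0.38; limma adjusted p = 0.735) over 8. Cldn5, the tight junction claudin of endothelium, had the widest spread within groups of the 37 (residual SD 0.84), with pools from -1.11 to 1.52 over 7 arrays, and differed by 0.67 (SE 0.54). Esam and Icam2, adhesion molecules of endothelial contacts, differed by 0.39 (SE 0.33) and -0.16 (SE 0.15). Over 8 arrays Cldn5, Esam and Icam2 were at 1.00 (SE 0.57), 0.38 (SE 0.35) and 0.40 (SE 0.53).

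Of the 8 transcription factors and cofactors, 7 had a difference above 0 over 7 arrays on the probe that stands for the gene, where 59.3% of all genes did, and none passed the test. Array median scaling, which put the median of all genes at -0.153 over 7 arrays, left 5 of 8 above 0. For Nfatc1 and Erg a second probe was below 0. The median difference was 0.34 over 7 arrays and 0.78 over 8, against 0.05 and 0.13 for all genes. Lmo2, a cofactor in GATA and TAL1 complexes of endothelium and red cells, ran from 1.73 to 2.40 across the knockout pools and from 1.46 to 1.76 across the wild type pools other than pool 1. Its difference was 0.48 (SE 0.19), 1.40-fold, with a 95% interval of 0.04 to 0.92 (limma adjusted p = 0.450), and knockout pool 1 lay below wild type pool 2. Over 8 arrays its difference was 1.02 (SE 0.52). The 14 erythroid genes had a median difference of 0.68 over 7 arrays, 13 of them above 0, and 1.08 over 8, all above 0, and none passed the test. Their mean relative to 7 arrays was 0.26, 0.82, -0.57 and 0.51 across the knockout pools and 0.76, -1.18 and -0.60 across the wild type pools other than pool 1. The part of red cell RNA in the Lmo2 value was not tested.

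The SOXF factors direct endothelial and arterial fate. Sox17 was -0.03, 0.56, -0.07 and 1.08 across the knockout pools and -1.57, 0.39, -0.33 and 0.06 across the wild type pools. Knockout pool 7 was high, and the difference of 0.35 (SE 0.32; limma adjusted p = 0.705) was within the spread; over 8 arrays it was 0.75 (SE 0.47). Sox18 was 0.53, 1.19, 0.69 and 1.06 across the knockout pools and -1.29, 0.71, 0.55 and 0.29 across the wild type pools. Its difference was 0.35 (SE 0.19; limma adjusted p = 0.547) with a 95% interval of -0.10 to 0.81 over 7 arrays, and 0.80 (SE 0.46) over 8. Sox7 was the factor on the other side of 0, at -0.20 (SE 0.21) over 7 arrays and -0.13 (SE 0.28) over 8, where quantile and array median scaling put it above 0.

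Klf2, which endothelial cells switch on under flow, was 2.43, 2.88, 2.63 and 2.40 across the knockout pools and 0.27, 2.06, 2.71 and 2.68 across the wild type pools. Wild type pool 2 was low beside wild type pools 5 and 7, and the knockout pools lay above it and on both sides of the others. The difference was 0.10 (SE 0.20), with a 95% interval of -0.37 to 0.57 (limma adjusted p = 0.862) over 7 arrays, and 0.66 (SE 0.53) over 8. The ETS factors Erg and Fli1 differed by 0.11 (SE 0.17) and 0.43 (SE 0.21) over 7 arrays and by 0.09 (SE 0.26) and 1.05 (SE 0.59) over 8.

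Nfatc1, the endocardial factor needed for valve formation, gave values that depended on the probe. Its brighter probe was 1.32, 1.85, 1.53 and 0.84 across the knockout pools and -1.09, 0.62, 1.51 and 1.03 across the wild type pools. That probe gave a difference of 0.33 (SE 0.29; limma adjusted p = 0.690) over 7 arrays and 0.87 (SE 0.55) over 8. Its other probe was 0.30, 0.52, 0.73 and -0.52 across the knockout pools and -0.35, 0.50, 0.86 and 0.92 across the wild type pools, a difference of -0.50 over 7 arrays and -0.22 over 8. Knockout pool 7 was the lowest of 7 arrays on the second probe, and wild type pool 2 the lowest on the first. No direction is given for this gene.

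Of the 9 surface and matrix genes, Lyve1 was lower in every knockout pool. Lyve1, the hyaluronan receptor of lymphatic and some other endothelium and of tissue macrophages, was -4.21, -4.14, -4.30 and -4.04 across the knockout pools. It was -3.89, -3.12, -3.94 and -2.62 across the wild type pools. Wild type pools 1 and 5 lay close above the knockout pools, and wild type pool 1 was not well above background. The means over 7 arrays were -4.17 ± 0.11 (SD, n = 4) and -3.23 ± 0.67 (SD, n = 3), which differ by -0.94 (SE 0.29), 1.92-fold lower, with a 95% interval of -1.61 to -0.27 (limma adjusted p = 0.382). Over 8 arrays it was -0.78 (SE 0.35; limma adjusted p = 0.735). With normexp background the groups overlapped over 7 arrays (-0.55). Over 8 arrays the difference was -0.24 with array medians, -0.23 with normexp, and none was left with quantile normalization (limma adjusted p = 1).

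The 13 measured leukocyte genes had a median difference of 0.32 over 7 arrays, with 11 above 0 and none without overlap, and of -0.19 over 8, with 5 above 0. Their direction thus turned with wild type pool 1, and none passed the test. Their mean relative to 7 arrays was 0.25, -0.31, 0.67 and -0.11 across the knockout pools and 0.65, -0.56 and -0.58 across the wild type pools other than pool 1. In wild type pool 1 it was 0.87. Lyve1 was highest in wild type pool 7, where the leukocyte mean was lowest, and their part in the Lyve1 difference was not tested.

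Emcn, or endomucin, was -0.98, -0.47, -0.59 and 0.42 across the knockout pools and -0.93, 0.06, -0.03 and 0.77 across the wild type pools. Knockout pools 1, 2 and 3 were below wild type pools 2, 5 and 7, and knockout pool 7 was within their range. The difference was -0.67 (SE 0.35), 1.59-fold lower, with a 95% interval of -1.49 to 0.15 (limma adjusted p = 0.529) over 7 arrays and -0.37 (SE 0.44) over 8, and it was above 0 under quantile or median scaling of the 8 arrays.

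Vwf, the clotting factor made by endothelium and megakaryocytes, was 2.73, 3.98, 3.05 and 2.93 across the knockout pools and 0.61, 3.50, 2.42 and 2.30 across the wild type pools. Pool 2 was the highest of its group in both genotypes. The difference was 0.43 (SE 0.39; limma adjusted p = 0.701) over 7 arrays and 0.97 (SE 0.59) over 8. The 8 platelet genes had a median difference of -0.68 over 7 arrays and -0.58 over 8, with 1 of 8 above 0 in both, and Ppbp differed by -1.26 and -0.98.

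The other surface genes had smaller differences over 7 arrays. Cd34, the sialomucin of endothelial and blood progenitor cells, differed by 0.23 (SE 0.11) with pools from 5.09 to 5.55, a 1.18-fold difference. Plvap, which forms the diaphragms of fenestrae, differed by 0.10 (SE 0.16). Clec14a, Ecscr and Mmrn2, proteins of sprouting endothelium, differed by 0.23 (SE 0.22), 0.06 (SE 0.17) and 0.15 (SE 0.25). The scavenger receptor Stab1 differed by -0.15 (SE 0.29). Over 8 arrays Cd34, Plvap, Clec14a, Ecscr, Mmrn2 and Stab1 were at 0.80, 0.66, 0.76, 0.31, 0.69 and 0.24, with SE from 0.33 to 0.54.

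Both signalling genes had differences close to 0 over 7 arrays. Nos3 ran from 3.20 to 3.82 across the knockout pools and from 3.28 to 3.73 across the wild type pools other than pool 1, a difference of -0.01 (SE 0.18) with a 95% interval of -0.44 to 0.42, and 0.50 (SE 0.50) over 8. Its other probe, the one spotted 10 times, gave a difference of -0.21 over 7 arrays and 0.16 over 8, and the SD of its spots within an array was 0.03 to 0.06 log2 units. The pools on that probe ran from 1.40 to 2.05 without wild type pool 1, so the spread between pools was wider than that between spots. Rasip1, which is needed for vessels to form a lumen, differed by -0.04 (SE 0.18) over 7 arrays and 0.48 (SE 0.51) over 8.

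The 8 genes with a pair of probes show how far the array itself fixes a direction. Over 7 arrays both probes had 1 sign for 5 of them, Cd34, Clec14a, Nos3, Plvap and Sox17, and opposite signs for Nfatc1, Erg and Ptprb. Sox17 gave 0.35 on its brighter probe and 0.50 on the other, with knockout pool 7 the highest on both. Erg gave 0.11 and -0.21, with its second probe well above background on 3 of 4 arrays of each group, and Ptprb gave 0.07 and -0.04.

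**Figure D3:**
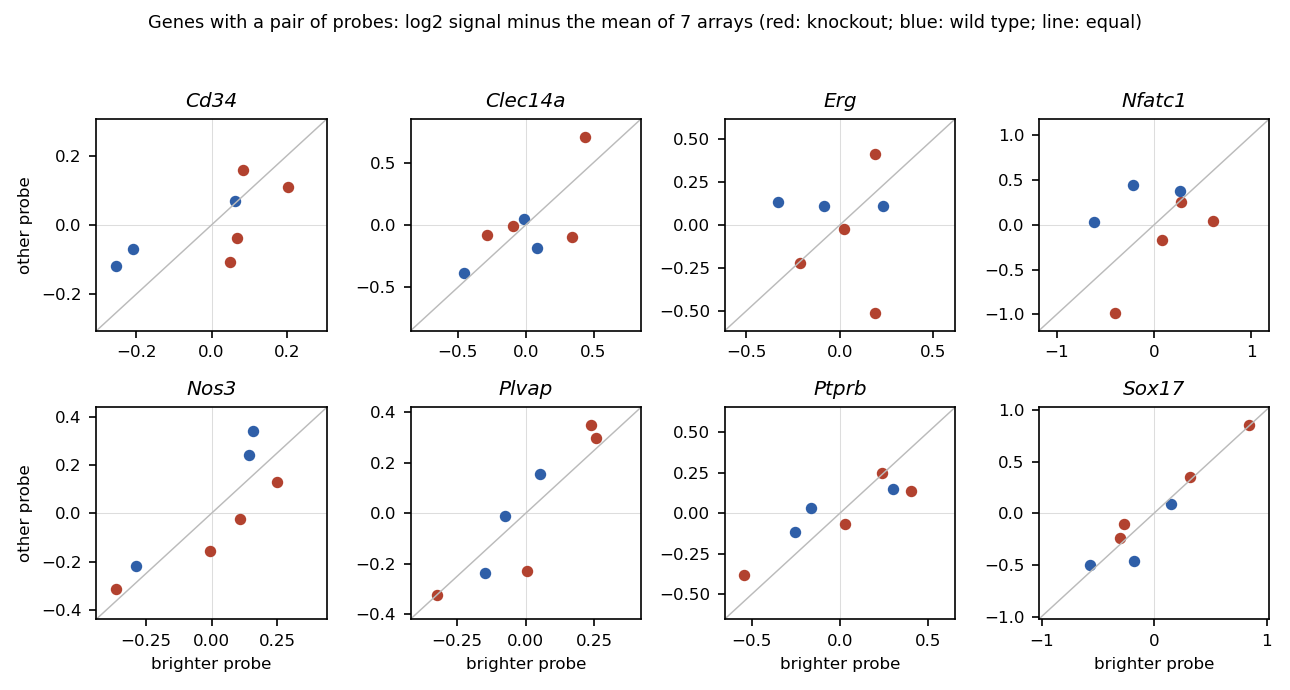
For the 8 genes with a pair of probes, log2 signal of the dimmer probe against the brighter one, each minus its mean over 7 arrays; 1 point per pool (red, knockout; blue, wild type), grey line for equal values. The points of Sox17 lie near the line, while those of Nfatc1 and Erg scatter away from it.

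The pools had their own pattern within the members. Over 7 arrays knockout pool 2 was the highest pool for 10 of the 37 genes (27.0%, against 8.75% of all genes): Pecam1, Tie1, Nos3, Vwf, Klf2, Nfatc1, Sox18, Cd34, Plvap and Clec14a. Knockout pool 7 was the highest for another 10 (27.0%, against 31.6% of all genes), among them Cldn5, Gja4, Angpt2, Sox17, Cdh5 and Esam. Wild type pool 7 was the highest for 12 (32.4%, against 21.0% of all genes), among them Apln, Lyve1, Emcn, Gpr182, Tek and Eng. Knockout pool 1 was the lowest for 8 (21.6%, against 8.37% of all genes). The mean of the 37 genes relative to 7 arrays was -0.24, 0.15, -0.06 and 0.17 across the knockout pools and 0.04, -0.16 and 0.09 across the wild type pools other than pool 1, so the groups overlapped. In wild type pool 1 it was -1.55.

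**Figure D4:**
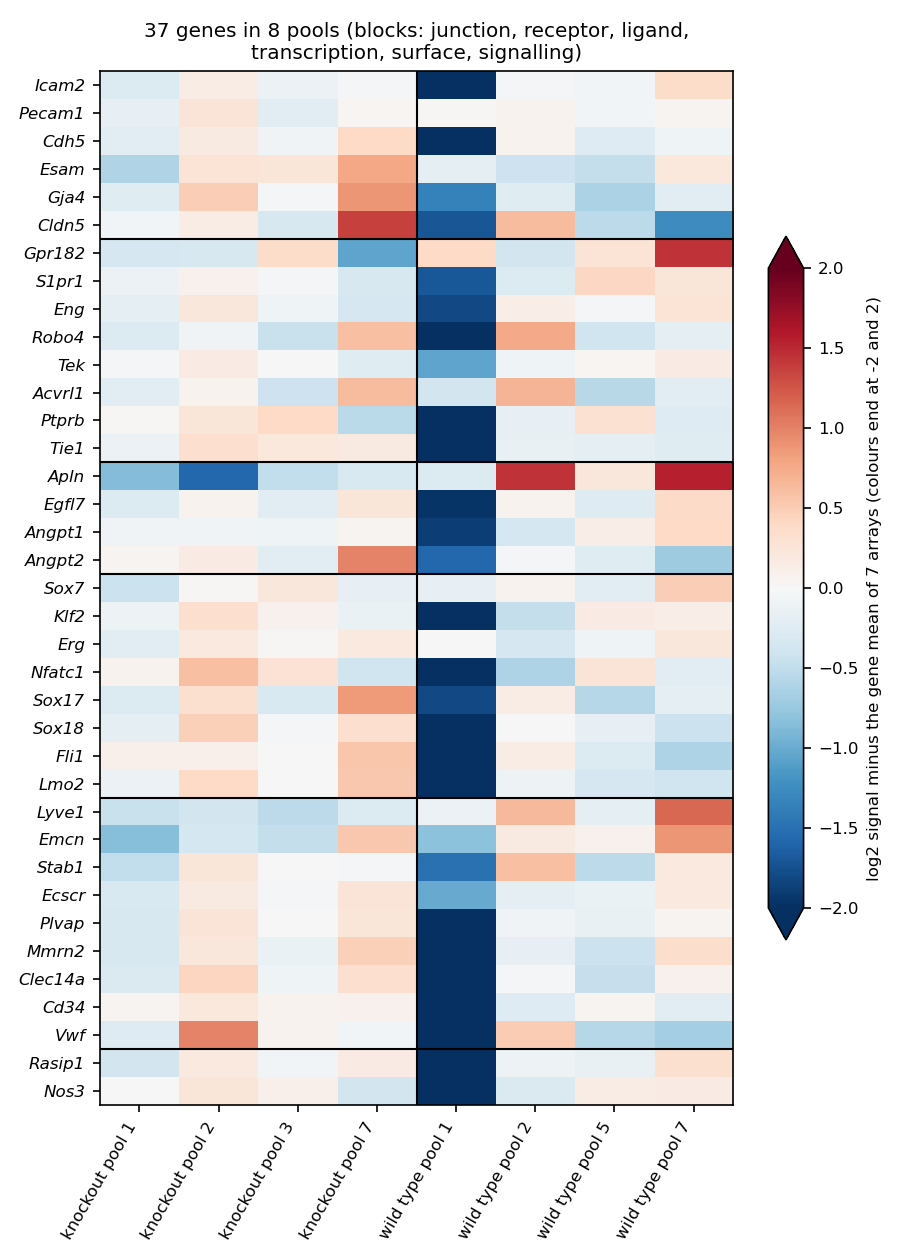
Log2 signal of the 37 genes in each of the 8 pools, minus the gene's mean over 7 arrays, in blocks by role; red is above and blue below that mean. The column of wild type pool 1 is dark for most genes, with Pecam1, Erg, Esam and Sox7 among the pale ones.

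Of a list of 50 other genes of vessels and endocardium, 48 were measured. None passed the test in either fit, and the median difference was -0.05 over 7 arrays, with 21 above 0 and 27 below, and 0.22 over 8, with 33 above 0. Over 7 arrays 7 of the 48 had an unadjusted p under 0.05. Of these, 2 were higher and 5 lower in the knockout pools, against 6.21% and 4.33% of all genes. The groups did not overlap for 3 higher and 3 lower in the knockout pools, as for 6.53% and 4.89% of all genes. The 4 with the smallest unadjusted p over 8 arrays were Gata2, Esm1, Hey1 and Jag1. Gata2, a factor of endothelium and blood progenitors, was -0.14, 0.32, 0.47 and 0.58 across the knockout pools and -1.78, -0.65, 0.01 and -0.43 across the wild type pools, a difference of 0.67 (SE 0.22; limma adjusted p = 0.404) over 7 arrays and 1.02 (SE 0.41) over 8. Esm1, a tip cell proteoglycan, was not well above background in knockout pool 2. Its levels in the other knockout pools were -3.84, -4.07 and -2.76. The wild type pools gave 0.17, -1.69, -3.83 and -2.42, so the groups overlapped. The Notch target Hey1 and the Notch ligand Jag1 differed by 0.43 (SE 0.19) and 0.36 (SE 0.20) over 7 arrays and by 0.95 (SE 0.51) and 0.79 (SE 0.45) over 8. Vegfa, which is also in the hypoxia list, and its receptor Kdr were chosen after their values were seen. Vegfa was lower in every knockout pool over 7 arrays (-1.11, SE 0.31; limma adjusted p = 0.364) but not over 8 (-0.76, SE 0.44), and Kdr differed by -0.16 (SE 0.11) and 0.33 (SE 0.47).

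Lists for other cells of the tissue are given beside these values. Over 7 arrays the median difference was -0.17 for 20 cardiomyocyte genes, all below 0, -0.12 for 9 smooth muscle genes, 0.02 for 12 cushion mesenchyme genes, 0.19 for 8 neural crest genes and -0.02 for 8 epicardial genes. It was 0.61 for 10 epithelial genes and 0.58 for 8 neuronal genes. Over 8 arrays the sign was the other for cardiomyocyte genes (0.33, 18 of 20 above 0), smooth muscle genes (0.12, 6 of 9 above 0) and epithelial genes (-0.19, 4 of 10 above 0). The 8-array medians were 0.54 for cushion mesenchyme, 0.35 for 9 neural crest genes, 0.003 for epicardial and 0.47 for 9 neuronal genes. None of these genes passed the test in either fit, and the smallest limma adjusted p in these lists was 0.218. Their part in the values of the 37 genes was not tested.

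**Figure D5:**
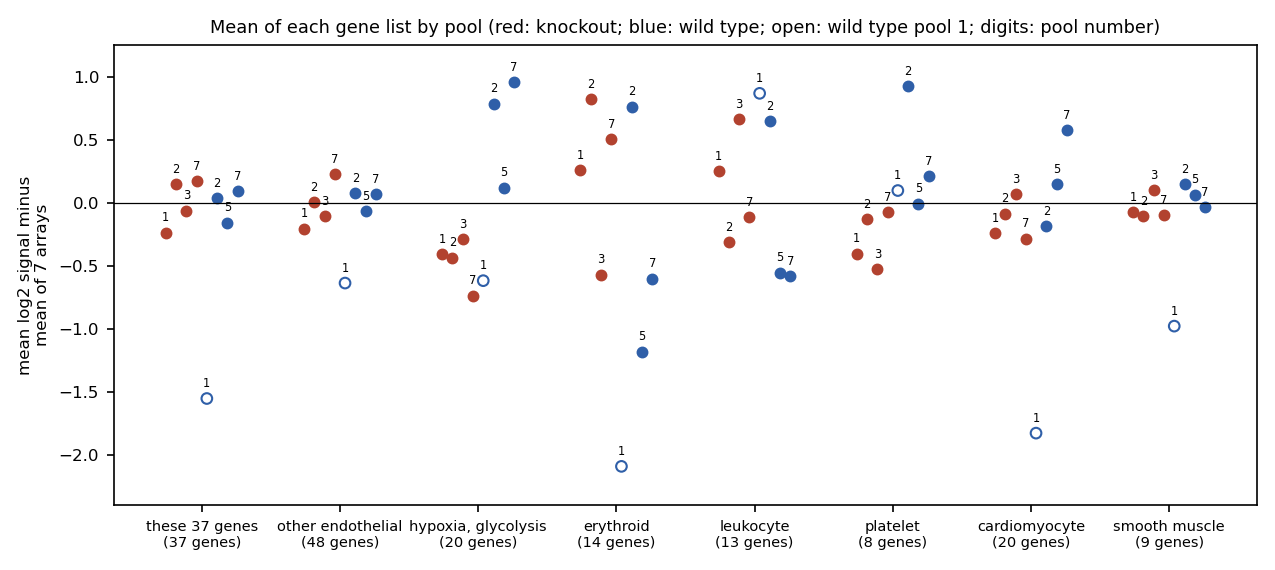
Mean log2 signal of each gene list in each pool, minus its mean over 7 arrays (red, knockout; blue, wild type; open circle, wild type pool 1; digits, pool number). The 37 genes and the other endothelial genes lie close to 0 in the 7 pools, the hypoxia list is lower in all knockout pools than in wild type pools 2, 5 and 7 but not than in wild type pool 1, and the erythroid list is spread within both groups.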

How the data were processed

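The authors deposited 1 scanner file per array and a matrix over all arrays. Per the file headers, the deposited intensity is Agilent Feature Extraction's processed signal (version 10.7.3.1, design 028005, mm9), linear and background-subtracted; the matrix holds the same intensity rounded by the authors, within 0.497%. Per the labels, RNA (50 ng, integrity number over 8) was taken on columns without DNase and labelled with Cy3.

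Spots of 1 probe were averaged, giving 55681 probes from 59305 spots that are not controls. Values were log2 signals minus the array's 75th percentile. A probe stayed in if at least 3 arrays of either group showed it well above background, and a gene was represented by its brightest such probe on average. Genes were named through RefSeq accessions or the array's own names. Groups were compared with limma 3.58.1 in R 4.3.3 (two-sided, Benjamini-Hochberg adjustment over all genes, threshold 0.05), over 8 arrays and over 7 without wild type pool 1. The fit was also run on simulated data with noise drawn independently for each gene and array, so a shift of a whole array was not simulated. Its share of recovered changes is not given here. The members, lists and tests were chosen with earlier results of these data known. Every member is named; pool values are given for Pecam1, Cdh5, Tek, Nfatc1, Klf2, Emcn, Angpt2, Apln, Sox17, Sox18 and Vwf, for members without overlap over 7 arrays, and for the 3 with the smallest unadjusted p over 8 arrays. Other lists name at most 4 genes by that p. Alternatives were quantile, median and normexp (offset 50) processing, the matrix values, no filter, the mean of a gene's probes, array weights, pool number as a block, and leaving out each pool. The number of arrays limits precision. Exon annotation on mm9 was not used here.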

Additional observations from a re-analysis of the deposited data

Results flagged for a closer look

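For 8 of 74 sets of 4 pools (37 genes in 2 groups) 1 pool lay far from the other 3 of its group, where chance gives about 1 in 20. In 7 of them that pool was wild type pool 1, with Cdh5 at -0.553, Tie1 at -0.27, Eng at 0.804, Plvap at 0.802, Icam2 at 2.292, Cd34 at 2.937 and Lmo2 at -0.567, each below the other wild type pools. The same pool stood apart in the mean of the 37 genes, -1.554 relative to the 7-array mean, and in the median processed signal of its array, 2023. In the remaining set Angpt1 was 1.615 in knockout pool 7, above the other knockout pools, which lay from 1.480 to 1.503.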

How the results depend on the processing

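No member passed the threshold in either fit under any alternative that was run, and the members' median over 8 arrays stayed above 0. Over all genes, array weights gave 8 genes past the threshold on 8 arrays, and scaling to the array median gave 22 on 7 arrays; without 1 further pool the 7-array count ran from 0 to 8, with 1 gene without knockout pool 7 and 8 without wild type pool 5. The members' 7-array median was -0.136 under array median scaling, where that of all genes was -0.153 (0.053 with the 75th percentile), and over 8 arrays the all-gene median was 0.671 under that scaling, -0.300 with no filter and 0.130 in the values reported. Differences of single genes over 8 arrays took the other sign with array weights for Acvrl1 -0.055, Angpt1 -0.084, Ecscr -0.016, Egfl7 -0.137, Eng -0.153, Icam2 -0.163, Rasip1 -0.101, Robo4 -0.222, S1pr1 -0.181, Stab1 -0.211 and Tek -0.019. They did so with quantile normalization for Ecscr -0.076, Egfl7 -0.100, Emcn 0.251, Eng -0.049, Icam2 -0.110 and Sox7 0.111, and with array median scaling for Emcn 0.170, Pecam1 0.499 and Sox7 0.413. Leaving out each pool in turn gave, for members that changed sign, Acvrl1 -0.075 to 0.392, Angpt1 -0.098 to 0.659, Egfl7 -0.109 to 0.670, Eng -0.219 to 0.474, Erg -0.002 to 0.185, Icam2 -0.164 to 0.677, Nos3 -0.007 to 0.725, Pecam1 -0.132 to 0.021, Rasip1 -0.044 to 0.757, Robo4 -0.110 to 0.912, S1pr1 -0.220 to 0.483, Sox7 -0.232 to 0.020, Stab1 -0.155 to 0.541 and Tek -0.073 to 0.337; of these, 10 did so without wild type pool 1. These causes were not tested. A check of the members over 7 arrays under other scalings, chosen after seeing the data, kept Apln lower without overlap in all 4, Lyve1 in 3 and Tie1 higher in 2; quantile values added Cd34, array medians Emcn, and normexp Gja4 and Lmo2 to the genes without overlap. The labels repeat pool numbers 1, 2 and 7 in both groups. Between samples of 1 number, deviations from the group means had correlations of mixed sign over 8 arrays (-0.151, 0.324 and -0.406). Over 7 arrays the correlations for numbers 2 and 7 were 0.0444 and -0.0341. With the number as a replicate block the members' median was 0.480 over 8 arrays and 0.073 over 7. No call changed, but the main fits held none. The block correlation was near 0 (-0.0165 over 8 arrays and 0.0898 over 7), so the blocked fit was almost the main fit. Signal over background limits Lyve1, not well above background in wild type pool 1, and the second probe of Erg, not well above it on 1 array of each group. Normexp, the matrix values, no filter and the mean of a gene's probes changed the sign of no member over 8 arrays.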
